A study of Mus musculus with 16 samples.

Results

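The genes described here are 8 regulators of the osteoblast lineage in the calvaria (skull vault) of the mouse: the zinc finger factor Sp7, the homeobox factors Dlx3, Dlx5, Dlx6, Msx1 and Msx2, the core binding factor subunit Cbfb and the parathyroid hormone receptor Pth1r. They were listed by name, and all array probes annotated to them were taken. Of the 8 genes, 7 had a probe, with 12 probes in all among the 25697 on the array, and Dlx6 is not analysed here. At least 1 probe of each of the 7 passed the filter on low values, so all 7 stood among the 9918 genes tested.

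RNA came from the calvaria of 16 male mice at postnatal day 7. The mice were wild type (WT), heterozygous for Runx2 (Runx2+/-, abbreviated R-Het), without Axin2 (Axin2-/-, A-KO), or carried both genotypes together (Axin2-/-:Runx2+/-, A-KO:R-Het). Runx2 encodes a transcription factor that osteoblasts require, and Axin2 encodes a feedback inhibitor of Wnt signalling. The design asks what each genotype does to calvarial expression alone and in combination. The construction of the alleles and the strain background are not given in the sources used here, the mice carried the genotype without any cell type being named for it, and Runx2 expression is not analysed here. One A-KO array is labelled as damaged and was left out, which leaves 3 A-KO arrays and 4 of each other genotype. Each array carried the RNA of 1 mouse.

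The 15 arrays had median intensities between 92.9 and 95.5 and correlated pairwise at 0.977 to 0.993. They lay on 2 chips, and each chip held every genotype. Of 20 listed osteoblast matrix genes, 18 were tested and had thus passed the filter on low values. Markers of other tissues were also read. The summed intensity of 18 measured skeletal muscle markers ran from 4656 to 128356 over the 4 R-Het arrays and from 19838 to 130353 over the 4 WT arrays. Skin and hair markers were low, with 4 of the 16 measured markers above the filter. In bulk bone, fewer cells of a type and less RNA per cell cannot be told apart.

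In the osteoblast lineage, RUNX2 binds DNA together with CBFB, its partner subunit, and SP7 (osterix) acts after RUNX2 to carry progenitors into bone-forming cells. DLX3, DLX5 and DLX6 are distal-less homeodomain proteins that promote osteoblast differentiation, while MSX1 and MSX2 are muscle segment homeodomain proteins active in neural crest and in growing skull bones, where they are known mainly as repressors and as regulators of progenitor growth. PTH1R is the receptor through which parathyroid hormone and PTHrP act on osteoblasts and growth plate cartilage.

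Promoter sequences are printed for 3 of the genes, Msx1, Msx2 and Pth1r, because their intensities were higher without overlap in 1 of the Axin2-deficient genotypes and a promoter was at hand. They come from RefSeq on mouse build GRCm38.p6 and run from 250 bases before the gene's start to 50 bases after it, 5′ to 3′ on the gene's strand. Capitals mark matches, on either strand, to the homeodomain core TAATT, to the TCF/LEF forms (CTTTGA, and the same with a final T, CTTTGT) or to the RUNX form TGTGGT. The windows are chr5:37824536-37824835 (minus strand) for Msx1, chr13:53472731-53473030 (minus strand) for Msx2 and chr9:110747096-110747395 (minus strand) for the first listed start of Pth1r.
Msx1: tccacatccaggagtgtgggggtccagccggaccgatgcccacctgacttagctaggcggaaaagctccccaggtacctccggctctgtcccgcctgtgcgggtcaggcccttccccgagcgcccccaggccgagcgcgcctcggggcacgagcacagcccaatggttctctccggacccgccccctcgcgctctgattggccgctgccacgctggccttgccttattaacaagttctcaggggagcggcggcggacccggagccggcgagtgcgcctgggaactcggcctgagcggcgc
Msx2: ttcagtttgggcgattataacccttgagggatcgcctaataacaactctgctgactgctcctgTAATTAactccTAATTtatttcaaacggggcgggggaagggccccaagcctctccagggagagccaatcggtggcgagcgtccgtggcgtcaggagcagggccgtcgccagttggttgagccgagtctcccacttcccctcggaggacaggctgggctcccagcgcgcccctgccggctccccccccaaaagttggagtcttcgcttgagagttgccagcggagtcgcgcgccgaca
Pth1r: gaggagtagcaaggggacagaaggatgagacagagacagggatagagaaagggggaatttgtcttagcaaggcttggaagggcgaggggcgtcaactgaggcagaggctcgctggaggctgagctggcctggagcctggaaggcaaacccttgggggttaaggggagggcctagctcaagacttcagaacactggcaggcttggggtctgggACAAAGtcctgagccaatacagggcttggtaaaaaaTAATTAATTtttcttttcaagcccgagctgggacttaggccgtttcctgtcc
The Msx1 window held none of the letters searched. The Msx2 window held 3 matches to TAATT, of which a pair overlap on opposite strands. The Pth1r window held 3 overlapping TAATT matches that run across the start site, and 1 TCF/LEF match on the reverse strand. The windows of the other 2 Pth1r starts held none of the letters searched and are not printed. TAATT is common, since 27.0% of the 32851 promoters of the same length held it, and 31.2% held a TCF/LEF form and 16.8% the RUNX form. The RUNX form was in none of the 6 windows of the 4 genes matched, Cbfb included. Such matches describe letters and not binding sites.

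Across the 8 comparisons, no probe of these genes passed an adjusted p of 0.05 in limma, the linear model for arrays fitted over all 9918 genes. The patterns closest to that threshold were a lower Dlx3 in mice with 1 Runx2 allele, a higher Msx1 and a higher second Pth1r probe in A-KO mice and a higher Msx2 in A-KO:R-Het mice, and Cbfb differed least. Values below are the authors' normalized intensity on a linear scale, and changes are log2 fold changes ± standard error. Intensities of different probes are not comparable as RNA levels.

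An unadjusted p under 0.05 in limma, at the brightest kept probe of each gene, was counted beside the share of all genes that reach it. In A-KO against WT 2 of the 7 genes reached it, Msx1 and Dlx5, beside 12.7% of all genes. In R-Het against WT 1 did, Dlx3, beside 9.24%, and in A-KO:R-Het against WT 2 did, Dlx3 and Msx2, beside 13.7%. In A-KO:R-Het against A-KO 2 did, Sp7 and Dlx3, beside 10.8%, and against R-Het 0 did, beside 6.46%. The interaction had 0, beside 6.16%, averaged Axin2 loss had 1, Msx1, beside 13.6%, and averaged Runx2 allele loss had 1, Dlx3, beside 12.6%. These genes were listed with earlier results in view, so the counts describe them and test nothing.

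**Figure D1:**
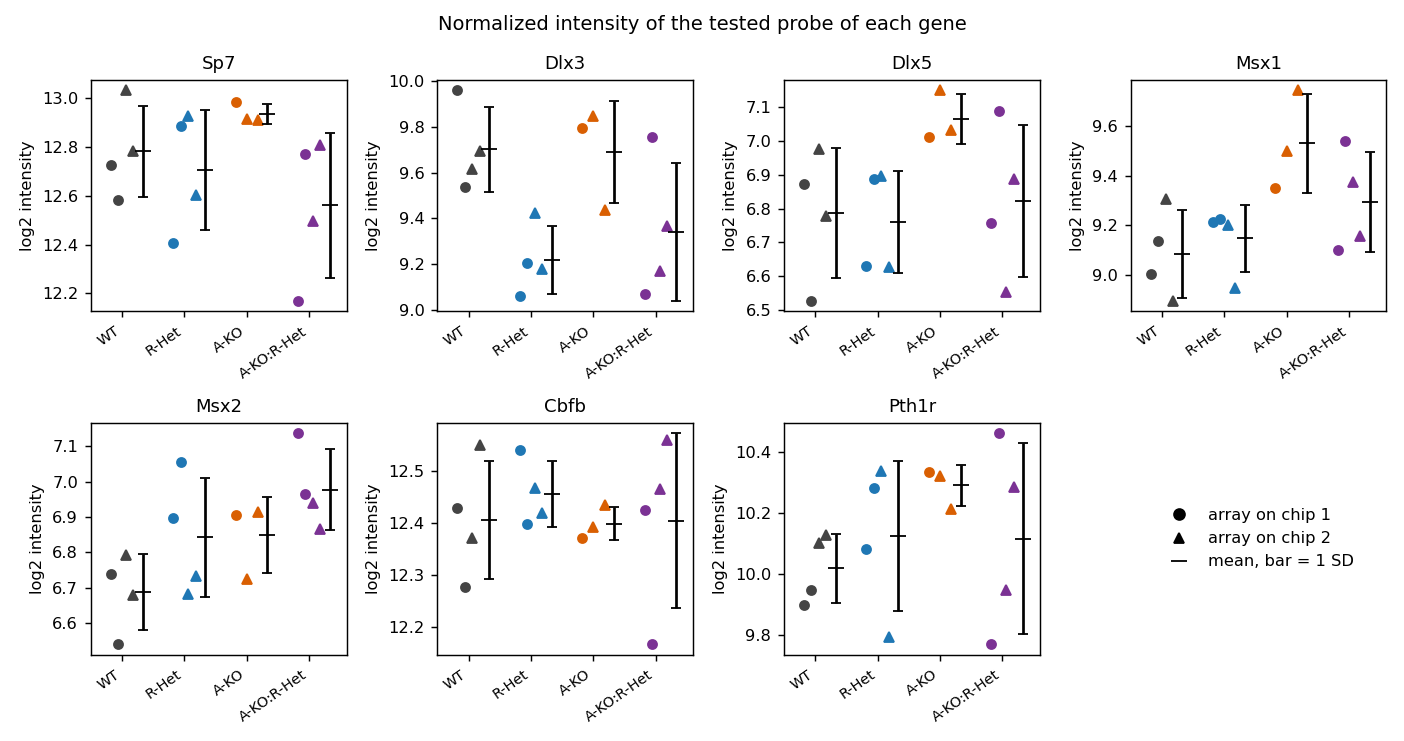
Log2 normalized intensity of the tested probe of each of the 7 genes (y axis) in the 4 genotypes (x axis), 1 point per array, circles for chip 1 and triangles for chip 2, with the mean and a bar of 1 SD beside each group. Dlx3 is low on every R-Het array, and Msx1, Dlx5 and Pth1r are higher on every A-KO array than on every WT array.

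Dlx3 had the strongest pattern. Its intensity was 996.3, 742.1, 784.3 and 829.7 on the WT arrays and 534.6, 590.8, 686.4 and 580.3 on the R-Het arrays. The highest R-Het array lay below the lowest WT array. It was 888, 920.6 and 693 on the A-KO arrays, against 538.2, 864.1, 576.9 and 659.4 on the A-KO:R-Het arrays. Of the 8 arrays with 1 Runx2 allele, 7 lay below all 7 arrays with both alleles, whose lowest value was 693. The exception was A-KO:R-Het replicate 2 at 864.1.

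Dlx3 was 1.40-fold lower in R-Het than in WT mice (-0.48 ± 0.14, 95% interval -0.79 to -0.18, limma adjusted p = 0.250). It was the single gene of the 7 whose R-Het and WT arrays did not overlap, where 2.45% of all genes were lower without overlap and 0.0504% passed the adjusted threshold. The difference was -0.36 ± 0.14 for A-KO:R-Het against WT (adjusted p = 0.259) and -0.35 ± 0.16 for A-KO:R-Het against A-KO (adjusted p = 0.433). Averaged over both Axin2 backgrounds, Dlx3 was 1.34-fold lower with 1 Runx2 allele (-0.42 ± 0.11, 95% interval -0.64 to -0.19, limma adjusted p = 0.057). In that averaged comparison 1.63% of all genes passed the adjusted threshold, and 2.04% had a p as small as that of Dlx3 or smaller. The interaction, which asks whether Axin2 loss acts differently with 1 Runx2 allele, was 0.13 ± 0.21 (adjusted p = 0.945). Axin2 loss alone left a difference of -0.01 ± 0.16 from WT, with an interval of -0.34 to 0.32.

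The averaged Runx2 value of Dlx3 lay between -0.50 and -0.36 in all 27 alternative fits that could give it, so its direction never turned, while its call depended on 1 array. Without A-KO:R-Het replicate 2 the value was -0.49 and the adjusted p 0.0131, the single alternative that passed. The value was -0.50 on chip 1 alone, which holds 1 A-KO array. It was -0.36 on chip 2 alone (adjusted p = 0.338), where 1 of 9420 genes passed. Leaving out the 3 arrays with the most muscle signal, WT replicates 1 and 3 and R-Het replicate 4, gave -0.37 (adjusted p = 0.172). With the muscle signal as a covariate on all arrays used, the value was -0.41 (adjusted p = 0.0759). Markers of other cell types moved with Runx2 genotype as well. For averaged Runx2 allele loss, 12 of 18 tested cartilage genes and 2 of 16 of fibrous matrix and periosteum were higher, and 5 of 13 osteoclast genes were lower. The summed intensity of 22 measured cartilage markers was 11722 to 25793 in WT, 10024 to 13637 in A-KO, 26093 to 30043 in R-Het and 22304 to 49252 in A-KO:R-Het. That of 17 fibrous matrix and periosteum genes was 80653 to 87467, 77802 to 86308, 92321 to 99093 and 88797 to 94893 in the same order, so it separated by Runx2 genotype. That of 14 osteoclast genes was 35353 to 43758, 37756 to 42840, 33649 to 37436 and 31871 to 35921, lower with 1 allele, overlapping as sums but not as mean log2 intensity. Over the 15 arrays Dlx3 and the mean of the cartilage markers had r = -0.67 (rho = -0.73, permutation p = 0.0067, adjusted p = 0.0744 over 35 relations), -0.62 without the 2 farthest arrays, -0.82 and -0.63 within the chips and -0.40 after centring each genotype. The part of these cell types in the Dlx3 difference was not tested.

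**Figure D2:**
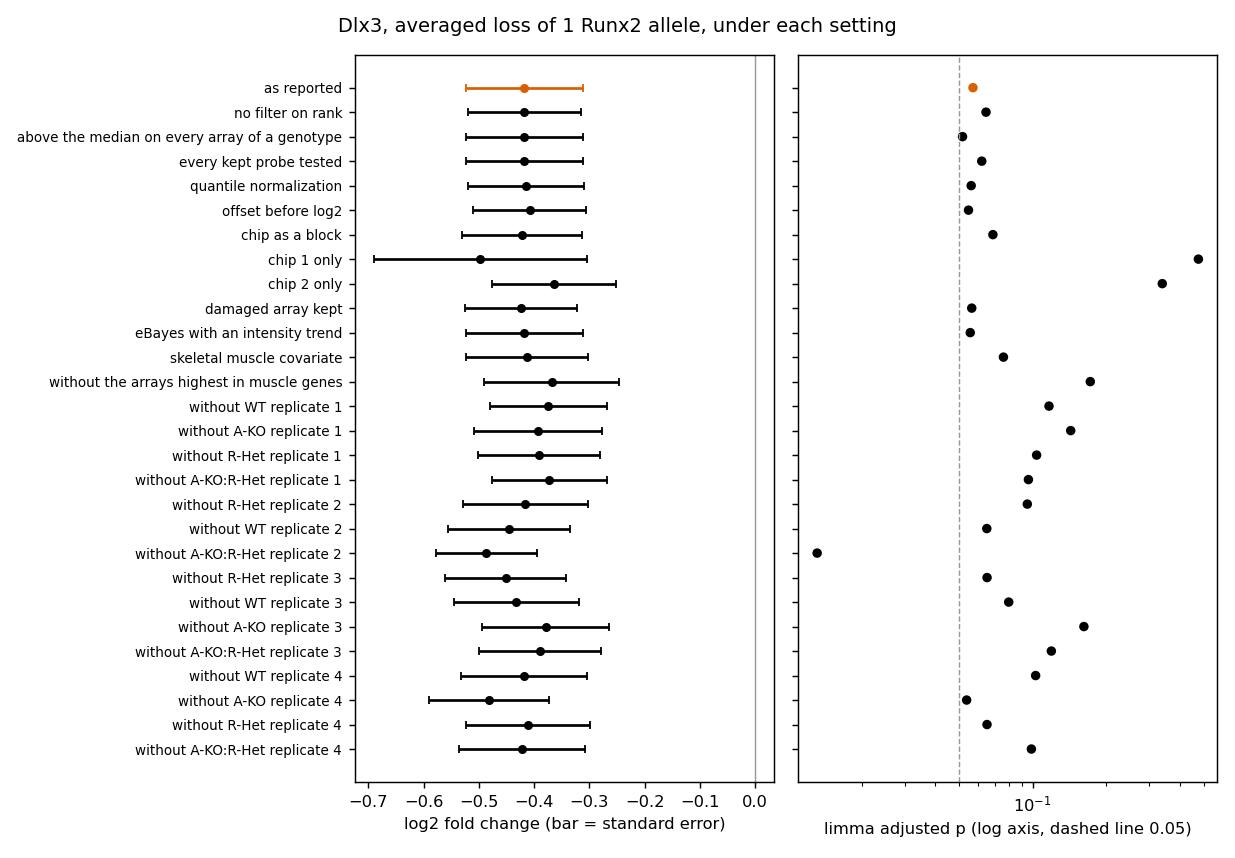
Log2 fold change of Dlx3 for averaged loss of 1 Runx2 allele with its standard error (left) and limma's adjusted p on a log axis (right), 1 row per setting, with the reported fit in orange. The estimates stay between -0.50 and -0.36, and the dashed threshold of 0.05 is crossed once, without A-KO:R-Het replicate 2.

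Sp7 was bright, at percentile 98.7 of all probes or above on every array. It read 6785, 6136, 8386 and 7058 in WT and 5430, 7578, 7783 and 6232 in R-Het, which overlap widely. It read 8107, 7725 and 7710 in A-KO and 4605, 6991, 5777 and 7179 in A-KO:R-Het. Every A-KO:R-Het array lay below every A-KO array, and 5.61% of all genes were lower without overlap in this comparison, in which 0.555% passed the adjusted threshold. The difference was -0.38 ± 0.16 (95% interval -0.71 to -0.04, limma adjusted p = 0.395), and -0.25 without A-KO:R-Het replicate 1, the lowest array. Averaged over both Axin2 backgrounds the Runx2 value was -0.23 ± 0.11 (adjusted p = 0.397). Sp7 and the cartilage marker mean had r = -0.67 (rho = -0.61, permutation p = 0.0056, adjusted p = 0.0744), -0.51 without the 2 farthest arrays, -0.87 and -0.54 within the chips and -0.48 after centring each genotype. Sp7 and the osteoblast matrix mean had r = 0.65 (rho = 0.74, permutation p = 0.0085, adjusted p = 0.0744), 0.80 without the 2 farthest arrays, 0.44 and 0.87 within the chips and 0.48 after centring. The part of cartilage or bone content in the Sp7 value was not tested.

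Cbfb differed less between genotypes than the other genes. Its brightest probe read between 4599 and 6041 over all 15 arrays, and every comparison gave a value between -0.05 and 0.05. Its averaged Runx2 value had a 95% interval of -0.11 to 0.17 and its averaged Axin2 value one of -0.17 to 0.11. The spread within genotypes, an SD of 0.11 on the log2 scale, was smaller than that of most genes, at percentile 15.6 of those tested. A second bright probe read 4599 to 5665 and correlated with the first at r = 0.59. Another probe was dim, at 103.3 to 165.9, and did not follow the first (r = -0.02). Its interaction value was -0.47 ± 0.16 (limma adjusted p = 0.732), against -0.04 ± 0.13 at the first probe, so the probes disagree on this comparison.

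Msx1 had the largest A-KO difference among the 7 tested probes. It read 513.9, 562.7, 632.9 and 476.7 in WT and 651.8, 722.4 and 856.2 in A-KO. Every A-KO array was above every WT array. R-Het arrays read 594.3, 598.9, 588.4 and 493.7, within the WT range, and A-KO:R-Het arrays read 549.3, 743.6, 663.4 and 571.2, from within the WT range into the A-KO range. Msx1 was 1.36-fold higher in A-KO than in WT mice (0.44 ± 0.13, 95% interval 0.17 to 0.72, limma adjusted p = 0.155). Averaged over both Runx2 genotypes the Axin2 value was 0.29 ± 0.09 (limma adjusted p = 0.147), and 0.645% of all genes passed there. With 1 Runx2 allele, A-KO:R-Het exceeded R-Het by 0.15 ± 0.12 (adjusted p = 0.844), and the interaction was -0.30 ± 0.18 (adjusted p = 0.835), so the effect of Axin2 loss was not shown to differ with Runx2 genotype.

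In A-KO against WT, 3 of the 7 genes were higher without overlap, Msx1, Dlx5 and Pth1r, where 7.62% of all genes were. Over all genes, 0.313% passed the adjusted threshold. The median of the 7 values was 0.16, beside 0.006 over all genes tested. Blood cell markers also differed between these arrays as sums. Gene by gene, 6 of 8 tested B cell genes were lower past the adjusted threshold, beside 0.313% of all genes. Of 12 tested neutrophil genes 0 passed, and of 6 erythroid genes 0. The summed intensity of 9 measured B cell markers was 864 to 942 in A-KO and 1437 to 1988 in WT, and that of 14 neutrophil markers was 6315 to 10406 against 11912 to 21491. That of 7 erythroid markers was 12298 to 20224 against 22997 to 29560. Skeletal muscle genes had a median log2 fold change of -1.02 in this comparison, with 0 of 17 tested genes past the threshold. The summed intensity of 18 muscle markers was 12384 to 58707 in A-KO and 19838 to 130353 in WT, which overlap. The part of the blood and muscle markers in the 3 differences was not tested.

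Dlx5 was dim. Its tested probe read 117.2, 92.21, 125.9 and 109.7 in WT and 129, 142 and 131 in A-KO, which do not overlap. It read 99.04, 118.5, 119.1 and 98.86 in R-Het and 108.2, 136, 93.9 and 118.5 in A-KO:R-Het, the former within the WT range and the latter reaching above it. The A-KO difference was 0.28 ± 0.13 (limma adjusted p = 0.388). The second Dlx5 probe, designed to another transcript record, never rose above the median of its array, was filtered out and followed the first weakly (r = 0.21).

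Msx2 was dim as well, above the array median on 14 of 15 arrays. It read 106.8, 93.13, 110.8 and 102.6 in WT and 140.7, 125, 122.7 and 116.7 in A-KO:R-Het. Those groups did not overlap, where 4.48% of all genes were higher without overlap and 1.89% passed the adjusted threshold. The A-KO arrays at 120, 105.9 and 120.6 and the R-Het arrays at 119.2, 133.1, 102.8 and 106.5 reached into both ranges. Msx2 was 1.22-fold higher with both genotypes combined than in WT mice (0.29 ± 0.10, 95% interval 0.08 to 0.49, limma adjusted p = 0.157). Its value was 0.16 ± 0.10 in A-KO and 0.15 ± 0.10 in R-Het against WT, and the interaction was -0.03 ± 0.14 (adjusted p = 0.988).

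Pth1r was read by 3 probes that followed each other, with r of 0.80, 0.70 and 0.70 between pairs over the 15 arrays. The brightest read 954.2, 988.4, 1098 and 1120 in WT and 1292, 1279 and 1187 in A-KO. The second read 528.8, 533, 560.7 and 593.6 against 925.4, 764 and 666.9, and the third 389.4, 329.6, 433.7 and 361.9 against 616.2, 462.9 and 479.4. At each of the 3 probes every A-KO array exceeded every WT array, and the probes read the same RNA samples. The size differed between them. It was 0.27 ± 0.15 at the first (adjusted p = 0.482), 0.49 ± 0.14 at the second (limma adjusted p = 0.139 over all kept probes) and 0.45 ± 0.17 at the third (adjusted p = 0.298).

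In A-KO:R-Het mice Pth1r had values of -0.17 ± 0.15, -0.37 ± 0.14 and -0.48 ± 0.17 against A-KO at the 3 probes (adjusted p = 0.760, 0.321 and 0.305). The first probe read 874, 1408, 987.8 and 1247 there, and its R-Het arrays 1083, 1246, 1294 and 888.5, so each of these genotypes spanned the WT and A-KO values. The interaction was -0.28 ± 0.21, -0.45 ± 0.19 and -0.70 ± 0.24 at the 3 probes, with limma adjusted p = 0.732 at the third. No probe of the interaction passed, and 0% of all genes did, with 611 genes at an unadjusted p under 0.05. For A-KO:R-Het against R-Het the share was also 0%, with 641 genes at an unadjusted p under 0.05. None of the 7 genes separated these genotypes without overlap, where 2.77% of all genes did in either direction.

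**Figure D3:**
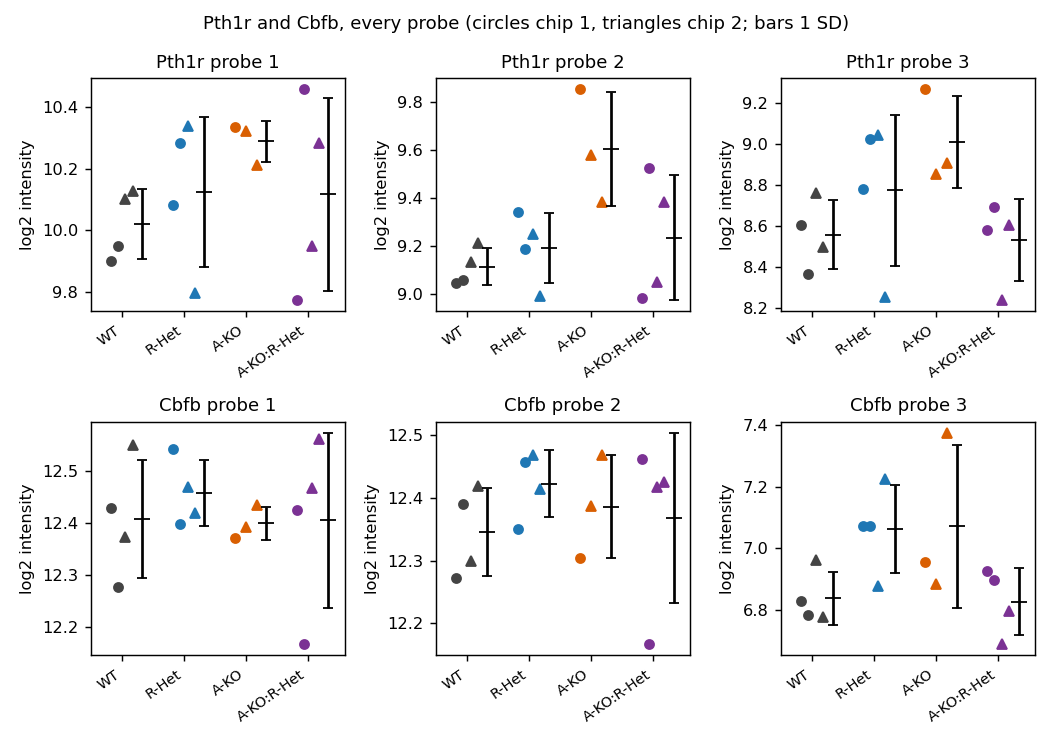
Log2 normalized intensity (y axis) of the 3 Pth1r and the 3 Cbfb probes in the 4 genotypes (x axis), 1 point per array with mean and 1 SD, circles for chip 1 and triangles for chip 2. A-KO stands above WT at each Pth1r probe, while the third Cbfb probe follows neither of the other two.

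**Figure D4:**
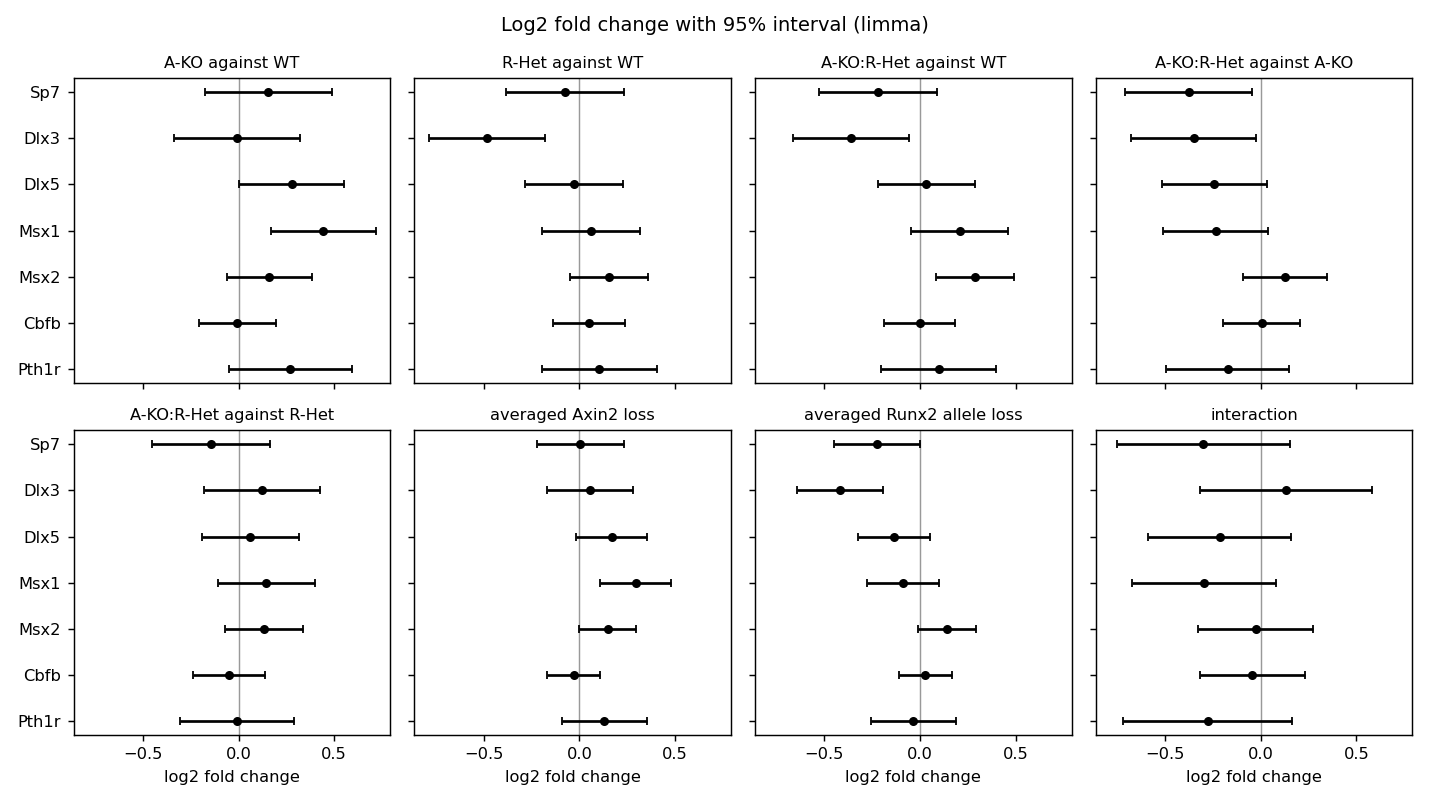
Log2 fold change (x axis) with 95% interval for the tested probe of each of the 7 genes (y axis) in each of the 8 comparisons. The intervals of Dlx3 in 4 comparisons and of Msx1 in 2 lie clear of 0. So do those of Sp7 in A-KO:R-Het against A-KO, Dlx5 in A-KO against WT and Msx2 in A-KO:R-Het against WT. Those of Cbfb are narrow and centred near 0.

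The genes were next compared with each other across the 15 arrays. Of 21 pairs, 3 had an adjusted permutation p under 0.05, all among Sp7, Dlx5 and Pth1r. Dlx5 and Pth1r had r = 0.73 and rho = 0.77 (permutation p = 0.0029, adjusted p = 0.0231), Sp7 and Pth1r r = 0.71 and rho = 0.69 (permutation p = 0.0026, adjusted p = 0.0231), and Sp7 and Dlx5 r = 0.70 and rho = 0.76 (permutation p = 0.0033, adjusted p = 0.0231). Without the 2 farthest arrays the 3 values of r were 0.71, 0.67 and 0.82. Within the chips they were 0.69 and 0.79, 0.74 and 0.72, and 0.62 and 0.88. After each genotype was centred on its own mean they were 0.69, 0.79 and 0.71, so the 3 genes varied together among mice of the same genotype. Leaving out 1 array at a time kept them between 0.61 and 0.82. Over all genes, 47 of 9917 (0.474%) correlated with Sp7 at least as strongly as Pth1r did, and 113 (1.14%) with Pth1r at least as strongly as Sp7 did. For the other pairs of the 3 these shares ran from 0.262% to 0.827%. The osteoblast matrix mean had r of 0.65 with Sp7, 0.71 with Dlx5 and 0.38 with Pth1r (adjusted permutation p = 0.0744, 0.0744 and 0.4). After centring each genotype these were 0.48, 0.73 and 0.31. The part of bone content in the 3 relations was not tested. Dlx3 had r of 0.61 with Sp7, 0.60 with Dlx5 and 0.39 with Pth1r (adjusted permutation p = 0.079, 0.084 and 0.336). Msx1 had r of 0.35, 0.57 and 0.56 with the same genes (adjusted permutation p = 0.35, 0.091 and 0.093). Msx2 and Cbfb did not follow Sp7, with r of -0.29 and -0.14.

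**Figure D5:**
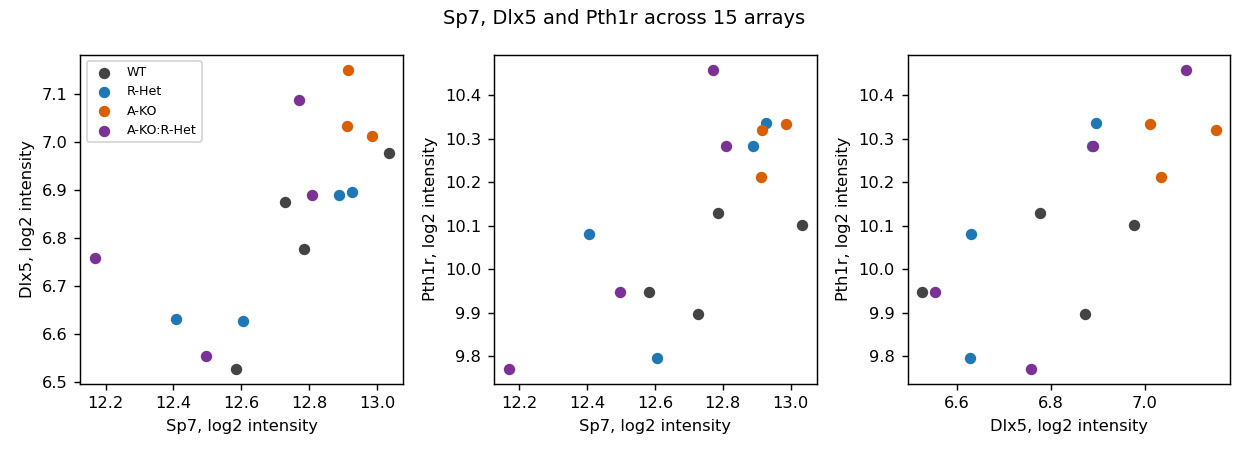
Log2 normalized intensity of Sp7, Dlx5 and Pth1r against each other, 1 point per array, coloured by genotype. Arrays low in one of the genes tend to be low in the others, within genotypes as well as between them.

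Over the 15 arrays, the genes most like each member were chosen by Pearson's r of log2 intensity, as a description. Sp7 was most like Smim14 (r = 0.88), Ampd2 and Snupn, and Dlx3 most like Naa80 (0.86), 1110008P14Rik and Tmem268. Dlx5 was most like Ifngr1 (0.83), Card10 and Smpd3, and Pth1r most like Slc25a1 (0.89), Selenom and Snx17. Msx1 was most like Limk1 (0.80), Nkiras2 and Phgdh, Msx2 most like Mob3a (0.82), Bmper and Fbxo21, and Cbfb most like Hoxa2 (0.82), Xpa and Zfp956. Variation in chip, tissue make-up and depth of signal among these arrays may enter these values, which was not tested.

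Of the other family members, Dlx1, Dlx2, Dlx4 and Msx3 had 1 probe each and none passed the filter. They read between 49.1 and 99.0, with median percentiles of 7.7 to 35.8 within the array. Their levels were therefore not tested.

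Of 62 other listed regulators of the osteoblast lineage, 41 were tested. None passed in A-KO against WT, beside 0.313% of all genes, and 1 was higher in R-Het against WT, beside 0.0504%. In A-KO:R-Het against WT 3 were higher and 1 lower, beside 1.89% of all genes. For averaged Runx2 allele loss 1 was higher, beside 1.63%. Six2, a homeobox factor of skull and kidney progenitors, rose with loss of 1 Runx2 allele averaged over Axin2 (0.37 ± 0.06, adjusted p = 0.0079). It read 123 to 145 in WT, 141 to 143 in A-KO, 166 to 209 in R-Het and 158 to 175 in A-KO:R-Het, so its groups separate by Runx2 genotype. That call was kept in all 15 fits that leave out 1 array, with adjusted p up to 0.0289. In R-Het against WT its call (0.51 ± 0.09, adjusted p = 0.0421) was kept only without R-Het replicate 4, with adjusted p up to 0.180 elsewhere.

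In A-KO:R-Het against WT, Six2 rose by 0.36 (adjusted p = 0.0427), a call kept in 4 of the 15 fits, those without R-Het replicates 1, 2 or 4 or WT replicate 4, with adjusted p up to 0.139 elsewhere. Zic1, a zinc finger factor of the neural plate border, rose by 0.71 ± 0.13 (adjusted p = 0.0129, and 0.0507 without A-KO:R-Het replicate 3). Twist2, a repressor of osteoblast differentiation, rose by 0.66 ± 0.14 (adjusted p = 0.0233), a call lost without WT replicates 1, 2 or 3 or A-KO:R-Het replicates 2 or 3, with adjusted p up to 0.0839. Hey1, a Notch target, fell by 0.62 on the log2 scale (adjusted p = 0.0494), a call kept only without R-Het replicate 1 or A-KO:R-Het replicate 2, with adjusted p up to 0.163.

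Among 34 listed genes of parathyroid hormone receptor signalling, 24 were tested. Of these, 1 was lower in A-KO against WT, 1 higher and 1 lower in A-KO:R-Het against WT, 1 lower for averaged Axin2 loss and 1 higher for averaged Runx2 allele loss, beside 0.313%, 1.89%, 0.645% and 1.63% of all genes. Slc9a3r1, a scaffold protein (NHERF1) that binds PTH1R, fell with Axin2 loss averaged over Runx2 genotype by 0.60 on the log2 scale (standard error 0.07, adjusted p = 0.000818). It read 220 to 262 in WT, 208 to 242 in R-Het, 143 to 161 in A-KO and 140 to 193 in A-KO:R-Het, so no Axin2-deficient array reached the others. The averaged call was kept in all 15 fits without 1 array, with adjusted p up to 0.00556. It fell by 0.70 in A-KO against WT (adjusted p = 0.0116, and 0.126 without A-KO replicate 1) and by 0.62 in A-KO:R-Het against WT (adjusted p = 0.00637). Ramp2, a receptor activity modifying protein, rose with loss of 1 Runx2 allele (0.31, adjusted p = 0.0300), a call lost without WT replicates 2 or 4, R-Het replicate 2, A-KO replicates 1 or 4 or A-KO:R-Het replicate 4, with adjusted p up to 0.0865. In A-KO:R-Het against WT Ramp2 rose by 0.38 (adjusted p = 0.0443), a call kept only without R-Het replicates 1, 2, 3 or 4 or A-KO replicate 3, with adjusted p up to 0.133 elsewhere.

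Of the 18 osteoblast matrix genes tested, 2 fell with loss of 1 Runx2 allele averaged over Axin2, beside 1.63% of all genes, and 1 rose with Axin2 loss, beside 0.645%. In A-KO:R-Het against WT 1 fell, beside 1.89%, and against A-KO 2 fell, beside 0.555%. Ank, a transporter that exports pyrophosphate, fell by 0.41 on the log2 scale (standard error 0.07, adjusted p = 0.00469), kept in all 15 fits without 1 array. It also fell by 0.50 in A-KO:R-Het against WT (adjusted p = 0.0106) and by 0.50 against A-KO (adjusted p = 0.0360). The last was lost without WT replicate 1, any of the 3 A-KO arrays or any of the 4 A-KO:R-Het arrays, with adjusted p up to 0.168. Ifitm5, a membrane protein of mineralizing osteoblasts, fell by 0.38 with loss of 1 Runx2 allele (adjusted p = 0.0111, kept in all 15 fits). It rose by 0.36 with Axin2 loss (adjusted p = 0.0282), kept in 7 of 15 fits with adjusted p up to 0.0761, and was lost without WT replicates 1, 2 or 3, R-Het replicate 2, any A-KO array or A-KO:R-Het replicate 3. In A-KO:R-Het against A-KO it fell by 0.49 (adjusted p = 0.0473), kept only without R-Het replicates 2 or 4 or A-KO:R-Het replicate 2, with adjusted p up to 0.190 elsewhere. 
When chip 2 was fitted alone, with 2 arrays per genotype, all 17 calls on genes of these 3 lists were lost. In that fit at most 3 of 9420 genes passed in any comparison, so the loss cannot show dependence on chip. Chip 1 alone holds 1 A-KO array and is not read for calls. With chip as a block, 3 were lost, those of Hey1 and Ramp2 in A-KO:R-Het against WT and of Ifitm5 against A-KO, with adjusted p of 0.0502 to 0.0569. With the muscle signal as a covariate 4 were lost, those of Six2 in R-Het and in A-KO:R-Het against WT, of Hey1, and of Ifitm5 against A-KO, with adjusted p of 0.0505 to 0.136. Without the 3 arrays with the most muscle signal 12 were lost, with adjusted p of 0.0717 to 0.268. Those kept were Slc9a3r1 for averaged Axin2 loss, Six2, Ank and Ifitm5 for averaged Runx2 allele loss and Ank in A-KO:R-Het against A-KO. That fit drops WT replicates 1 and 3 and R-Het replicate 4. In A-KO:R-Het against WT it called 5 of all genes, against 187 as reported and 159 with the muscle covariate. Fewer WT arrays and less muscle signal cannot be told apart there. When only the groups compared were fitted, 7 of 11 calls were lost, with adjusted p of 0.0539 to 0.252, and Zic1 was among them. With the damaged array kept 10 were lost, and the other settings of filter, probes and normalization cost at most 4, with adjusted p of 0.0505 to 0.057.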

How the data were processed

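Single-colour Illumina bead arrays were hybridized with biotin-labelled cRNA from TRIzol-extracted RNA, per the labels. The values are the authors' deposited normalized probe intensity on a linear scale. Their background correction and between-array normalization are not given in the sources used here. A table of scanner signals was not used, because its 32 columns carry numbers that match no sample. Groups came from the genotype labels, and replicate numbers only name arrays.

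Probes were named by the platform annotation: 23978 have 1 gene symbol, 0 have several and 1719 have none. A probe was kept if it lay above its array's median on at least 3 of 15 arrays, which left 14212 probes. For each gene the brightest kept probe was tested, 9918 in all. Log2 intensity was fitted in limma 3.58.1 under R 4.3.3 with 1 mean per genotype, moderated by empirical Bayes and adjusted by the Benjamini-Hochberg method over all genes tested, with a threshold of 0.05. The other probes of a gene were read from a second fit over all kept probes. The procedure was tested on simulated data. Correlations used 100000 permutations. The number of arrays limits the precision.

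The 8 comparisons were each genotype against WT, A-KO:R-Het against each single genotype, the interaction, and the effect of either mutation averaged over the other. Comparisons that use the same arrays are not independent. The genes and lists were chosen with earlier results of these data known. Genes named beside the 8 are those of the 4 related lists past the threshold and, for each gene, the 3 most like it. Alternatives covered the filter, all probes, quantile normalization, an offset of 16, chip as a block, each chip, the damaged array, an intensity trend, only the groups compared, muscle content and leaving out each array.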

Additional observations from a re-analysis of the deposited data

Results flagged for a closer look

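Groups of 4 arrays were screened for a single array far from the rest by Dixon's test, over 36 groups, of which chance flags about 1 in 20, and 2 were flagged. Msx1 on R-Het replicate 4 read 493.7, while the other 3 R-Het arrays read 588.4 to 598.9. The second Cbfb probe on A-KO:R-Het replicate 2 read 4599, while the other 3 A-KO:R-Het arrays read 5469 to 5644. The same array carried the high Dlx3 value of its genotype.

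The A-KO array labelled as damaged took no part in the comparisons. There, 7 of the 12 probes lay outside the range of the 15 arrays used. The second Cbfb probe read 10020 on it, above the WT range of 4947 to 5475, while the first Cbfb probe read 590.2, 7.79-fold below the lowest array used. The second Pth1r probe read 650.2, above the WT range of 528.8 to 593.6 but below the other A-KO arrays at 666.9 to 925.4 and inside the range of the arrays used. The first Pth1r probe read 205.3, 4.26-fold below the lowest array used. The first and second Cbfb probes thus lay on opposite sides of the other arrays.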

How the results depend on the processing

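Over 28 alternative settings, 15 of them leaving out 1 array, 56 pairs of a gene and a comparison gave 1547 values. Of these, 1546 stayed short of the threshold, as reported, and 1 passed, which is Dlx3 for averaged Runx2 allele loss without A-KO:R-Het replicate 2. Without 1 array at a time, the number of the 7 genes past the threshold in that comparison was 0 to 1. The sign turned in 92 values, none past the threshold, from 31 pairs. With the damaged array kept, Pth1r in A-KO against WT moved from 0.27 to -0.38, Ank in A-KO:R-Het against A-KO turned to 0.35 and Ank for averaged Runx2 allele loss to 0.016, none of them past the threshold. The number of all genes past the threshold varied more. It ran over the settings from 0 to 76 in A-KO against WT (31 as reported), 0 to 15 in R-Het against WT (5), 0 to 225 in A-KO:R-Het against WT (187), 0 to 85 against A-KO (55), 0 to 199 for averaged Axin2 loss (64) and 1 to 244 for averaged Runx2 allele loss (162), and 0 to 1 in the remaining 2 comparisons. The cause was not tested. Dlx5, Msx2 and the third Cbfb probe are dim, and no background floor is known, so their differences may be understated. The called genes Six2, Twist2 and Slc9a3r1 also read low, at 123 to 209, 118 to 245 and 140 to 262. Array medians were 92.9 to 95.5, so the same limit applies to these 3 genes. No paired analysis was possible because the labels give no replicate numbers.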
